A study of Mus musculus with 8 samples.

Results

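The clustered replication-dependent histone genes are the histone genes that lie together in a few genomic clusters and are named Hist1 to Hist4 after the cluster. Members were the genes whose symbol in the authors' annotated table begins with Hist and a digit, read from probe sets with exactly 1 symbol. This gave 55 genes of 21104 tested: 5 of type H1, 14 of H2A, 14 of H2B, 11 of H3 and 11 of H4. Cluster 1 held 42 of them, cluster 2 held 9, cluster 3 held 3 and cluster 4 held 1. They were measured by 59 probe sets, and 7 more probe sets that name a clustered histone gene among several symbols were left out. All 55 had an entry in the mouse gene table, under a newer symbol such as H1f2 for Hist1h1c or H3c2 for Hist1h3b; the older symbols of the array annotation are kept here.

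Expression was measured on Affymetrix arrays in haematopoietic stem cells, the source of all blood lineages, from the marrow of untreated C57Bl/6 mice. They were sorted as LSK cells (no lineage markers, Sca-1 and Kit present) with high CD9, with CD150 and without CD48. Each of the 4 KO pools came from 3 Vav-Cre;BMPR-II(fl/fl) mice, in which Cre, active in blood cells, removes exons 4 and 5 of Bmpr2, which encodes a receptor of bone morphogenetic proteins. Each of the 4 WT pools came from 3 littermates without Vav-Cre. In WT pools 1 to 4 the number of mice floxed on both alleles was 1, 0, 1 and 2, the number floxed on a single allele was 2, 3, 1 and 1, and WT pool 3 held 1 mouse with neither allele floxed. The controls therefore carry floxed alleles too, and Cre cannot be told apart from the loss of Bmpr2. The sources used here give neither age nor sex.

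Histones are the proteins around which DNA is wound. H2A, H2B, H3 and H4 form the core of the nucleosome, and the linker histone H1 binds where DNA enters and leaves it. The clustered genes supply most of the histone protein that a cell needs when it copies its DNA, and their messages accumulate in S phase. These messages typically have no introns and end in a conserved stem-loop in place of a poly(A) tail. Whether this holds for each member was not checked. The stem-loop is bound by SLBP, and the protein NPAT at the histone locus body drives their transcription. Haematopoietic stem cells are mostly quiescent, so the share of cells in S phase is small and can differ between sorts. In pooled cells, fewer cells in S phase and less histone RNA per cell cannot be told apart. The sources used here do not name the kind of primer that copied the RNA, which decides how well messages without a poly(A) tail are caught.

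Levels are RMA values on the log2 scale, and a difference of 1 is 2-fold. Array medians over the tested genes lay between 5.77 and 5.83, and the median r across genes to the other arrays was lowest for WT pool 2, at 0.982 against 0.985 to 0.987. Bmpr2 was at 7.22, 6.64, 6.70 and 6.91 over the KO pools in order of their numbers and at 8.09, 7.63, 7.05 and 7.83 over the WT pools, so that KO pool 1 lay above WT pool 3. The difference was -0.79 (SE 0.21, limma adjusted p 0.967), and whether the array's probes lie in the deleted exons was not known. The gate's markers were present, with mean levels of 10.19 in KO and 10.35 in WT for Kit, 7.17 and 6.90 for Slamf1 (CD150), and 8.91 in both for Cd9. Cd9 varied between pools of a group. It was at 8.72, 8.23, 9.78 and 8.92 over KO pools 1 to 4 and at 8.83, 8.09, 9.53 and 9.20 over WT pools 1 to 4. Of 15 lymphoid markers 7 and of 10 mast cell markers 7 had means below the lower quartile of all genes.

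Most members gave bright signals. The mean level of 49 of 55 genes was above that of the median gene, and 39 were above the 90th percentile of all genes. Levels of different probe sets depend on their probes, so this describes signal strength and does not rank the genes. Hist1h1t and Hist1h3f lay below the lower quartile, where signals are weak.

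Many members had nearly the same profile over the pools. Genes of one core histone type are alike in their coding sequence, and probe sets for such genes can catch each other's messages. The probe sequences were not at hand, so whether members share probes or vary together was not tested. After each gene's mean was subtracted, 23 of the 55 genes fell into 3 sets within which no 2 genes differed by more than 0.1 in any pool, and the other 32 genes joined no set. The first set held 9 of the 11 H3 genes, from Hist1h3b, Hist1h3c, Hist1h3d, Hist1h3e, Hist1h3g, Hist1h3h and Hist1h3i of cluster 1 to Hist2h3b and Hist2h3c1 of cluster 2. The second held 7 H2A genes, among them Hist1h2ai and Hist2h2ac. The third joined the H2B genes Hist1h2bf, Hist1h2bl and Hist1h2bn with the H4 genes Hist1h4a, Hist1h4b, Hist1h4k and Hist1h4m. In all, 68 of 302 pairs of the same type (22.5%) and 14 of 1183 pairs of different types (1.18%) were that close. The levels of genes in these sets are uncertain as levels of single genes, and a count over the 55 members may count a reading repeatedly.

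**Figure D1:**
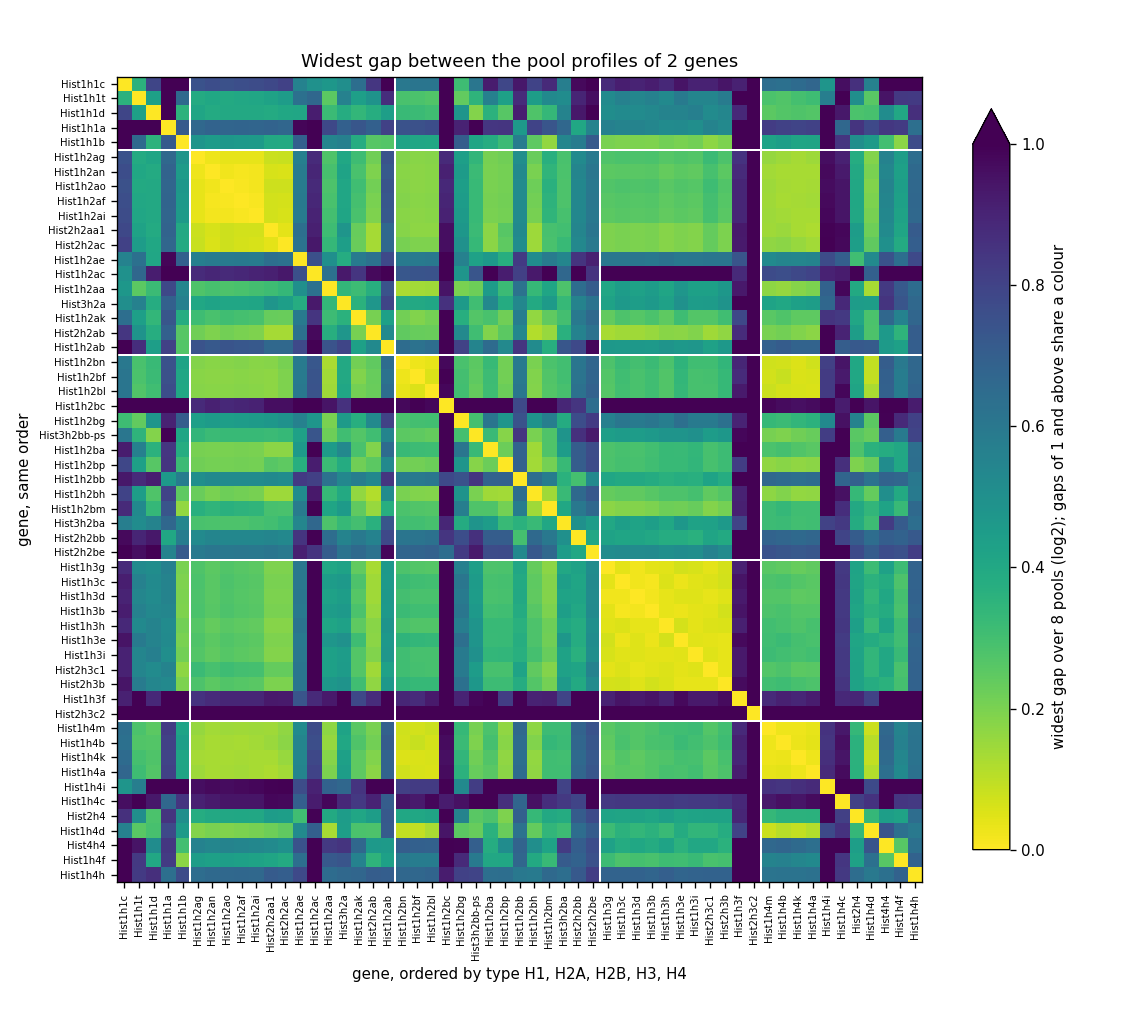
Widest gap over the 8 pools (log2) between the profiles of each pair of the 55 genes, after each gene's mean was subtracted; genes are ordered by histone type, with white lines between types. The pale block of 9 H3 genes has no gap above 0.069, and single genes such as Hist2h3c2 and Hist1h2bc stand apart from nearly all others.

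Hist1h3b and Hist1h3d of the H3 set read alike in every pool. The 140 bases before their annotated starts matched in 75 of 153 aligned positions, gaps included (49.0%). Other pairs of the set were not aligned. Both windows are shown to compare these upstream sequences, from RefSeq on GRCm38.p6, 5′ to 3′ on the gene's strand, with Hist1h3b at chr13:23752205-23752344 (+) and Hist1h3d at chr13:23575623-23575762 (+). Capitals mark CCAAT and TATAAA on either strand, the binding letters of the factor NF-Y and of the TATA-binding protein.
Hist1h3b: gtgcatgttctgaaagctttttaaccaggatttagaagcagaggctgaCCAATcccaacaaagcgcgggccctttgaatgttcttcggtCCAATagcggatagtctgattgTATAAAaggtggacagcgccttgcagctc
Hist1h3d: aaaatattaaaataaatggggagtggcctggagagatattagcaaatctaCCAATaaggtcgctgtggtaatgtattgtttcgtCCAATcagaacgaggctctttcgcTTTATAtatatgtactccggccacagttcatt
Each window holds 2 CCAAT matches and 1 TATAAA match.

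Promoter sequence was at hand for 50 of the 55 genes. Within 250 bases before the start, CCAAT occurred on either strand in 41 of 50 members (82.0%) against 34.5% of 27025 promoters of all genes. It was present in all 5 H1, 14 H2A and 11 H2B promoters, in 8 of 10 H3 promoters and in 3 of 10 H4 promoters. TATAAA occurred in 26 of 50 (52.0%) against 13.0% of all. The octamer ATTTGCAT, bound by the OCT-1 factor that Pou2f1 encodes, occurred in 6 of 14 H2A and 5 of 11 H2B promoters and in 0 of 5 H1, 10 H3 and 10 H4 promoters, against 1.61% of all. None of these 3 motifs contains another, and a match is a description of the window only.

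Histone levels differed between pools of the same group. Each gene was expressed as its deviation from its own mean over the 8 pools, and the median deviation of the 55 genes was taken per pool. It was -0.04, -0.10, 0.08 and 0.41 over KO pools 1 to 4. Over WT pools 1 to 4 it was -0.16, -0.20, 0.26 and -0.12. KO pool 4 was thus high among the KO pools and WT pool 3 among the WT pools, and the groups overlapped. KO pool 4 was the highest of the 4 KO pools for 42 of 55 genes, and WT pool 3 the highest of the 4 WT pools for 50. At the low end, KO pool 2 was the lowest KO pool for 37 genes and WT pool 2 the lowest WT pool for 34. The median deviation of all 21104 genes lay between -0.02 and 0.02 in every pool. The range over the 8 pools was 0.78 for the median member and 0.57 for the median gene of the array.

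The same pools stood out in every core type, by different amounts. The median deviation in KO pool 4 was 0.55 for H3, 0.40 for H2A, 0.31 for H4 and 0.29 for H2B, and 0.43 for the 5 H1 genes. In WT pool 3 it was 0.29 for H3, 0.27 for H4, 0.20 for H2A, 0.18 for H2B and 0.18 for H1. WT pool 2 was at -0.37 for H3, -0.24 for H2A, -0.17 for H2B and -0.11 for H4, but at 0.12 for H1.

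**Figure D2:**
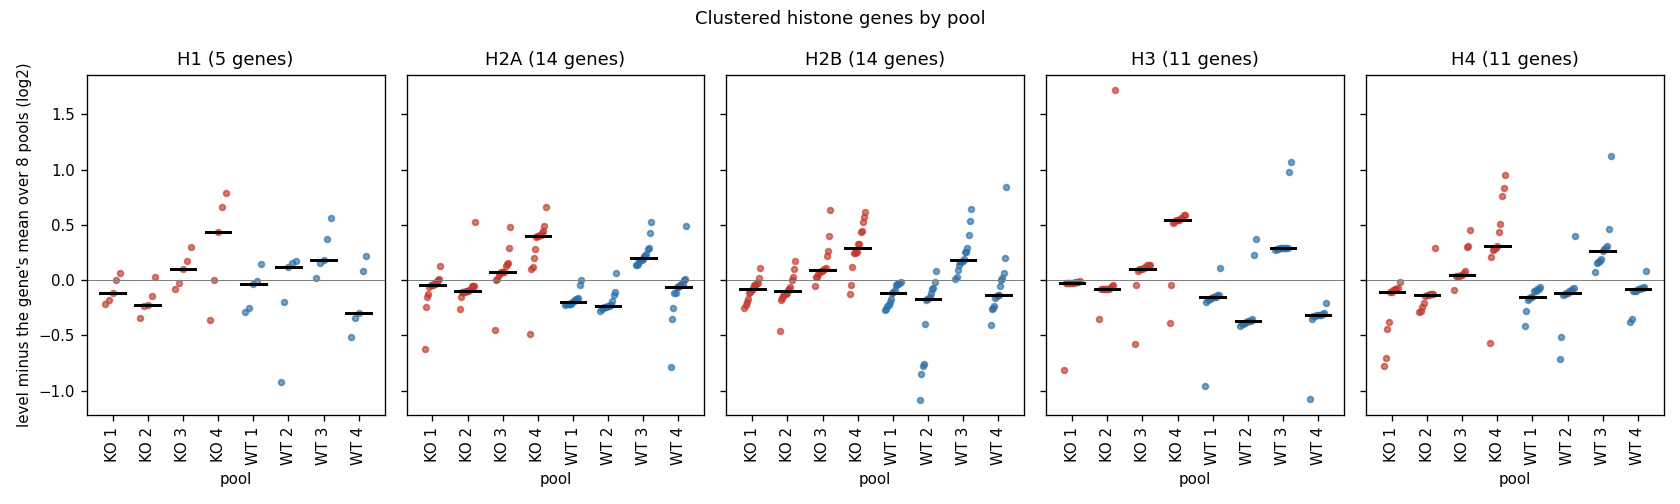
Level of each gene minus its own 8-pool mean (log2), by pool and histone type; points are genes, red for KO and blue for WT, and black bars are medians. KO pool 4 (median 0.55 for H3, 0.29 for H2B) and WT pool 3 (0.29 and 0.18) lie above the other pools of their groups.

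KO pool 4 was not the highest KO pool for 13 members. None of the 13 is in the 3 sets, but the sets were drawn from these same profiles, so this is no separate result. The 13 were Hist1h1c, Hist1h1t, Hist1h2aa, Hist1h2ac, Hist1h2bc, Hist1h2bg, Hist1h3f, Hist1h4i, Hist2h2be, Hist2h3c2, Hist3h2a, Hist3h2ba and the pseudogene Hist3h2bb-ps. Hist1h1t and Hist1h2aa are known for expression in testis, and Hist2h2be encodes an H2B variant known in the mouse for its role in olfactory neurons. The testis gene Hist1h2ba went the other way, at 6.14 in KO pool 4 against 5.41, 5.42 and 5.52 in KO pools 1 to 3.

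Between KO and WT no clustered histone gene passed the test. The fit with limma over all 21104 genes called 0 genes at an adjusted p under 0.05 (0%), so 0 of 55 members passed. KO was higher in 45 members and lower in 10, with a median difference of 0.16 or 1.12-fold, against 10288 higher and 10816 lower with a median of -0.0043 over all genes. With each set of near-equal profiles counted once (3 sets and 32 single genes), 25 of 35 were higher in KO. At an unadjusted p under 0.05, limma gave 2 members of 55 (3.64%) against 4.55% of all genes. Of the members 0 were higher and 2 lower in KO, against 2.3% and 2.25% of all genes. The KO and WT pools did not overlap for 0 members, against 2.58% of all genes. With 4 pools per group the smallest exact permutation p is 0.0286, and the smallest among the members was 0.0571.

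The median difference moved by over 1.5 times when single pools were left out. It was 0.05 without KO pool 4, with 39 of 55 genes higher. It was 0.11 without WT pool 2 and 0.26 without WT pool 3. Without WT pool 3, 14 members (25.5%) had an unadjusted limma p under 0.05, against 5.67% of all genes in that fit. With any other single pool left out, 1 to 3 members did. Of the 14 members, 9 were the H3 genes that read alike, and the others were Hist1h1b, Hist2h2ab, Hist2h2bb, Hist3h2ba and, lower in KO, Hist1h3f. With genes that read alike counted once, the 14 make 6 of 35 readings. The smallest limma adjusted p among the members without WT pool 3 was 0.869.

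**Figure D3:**
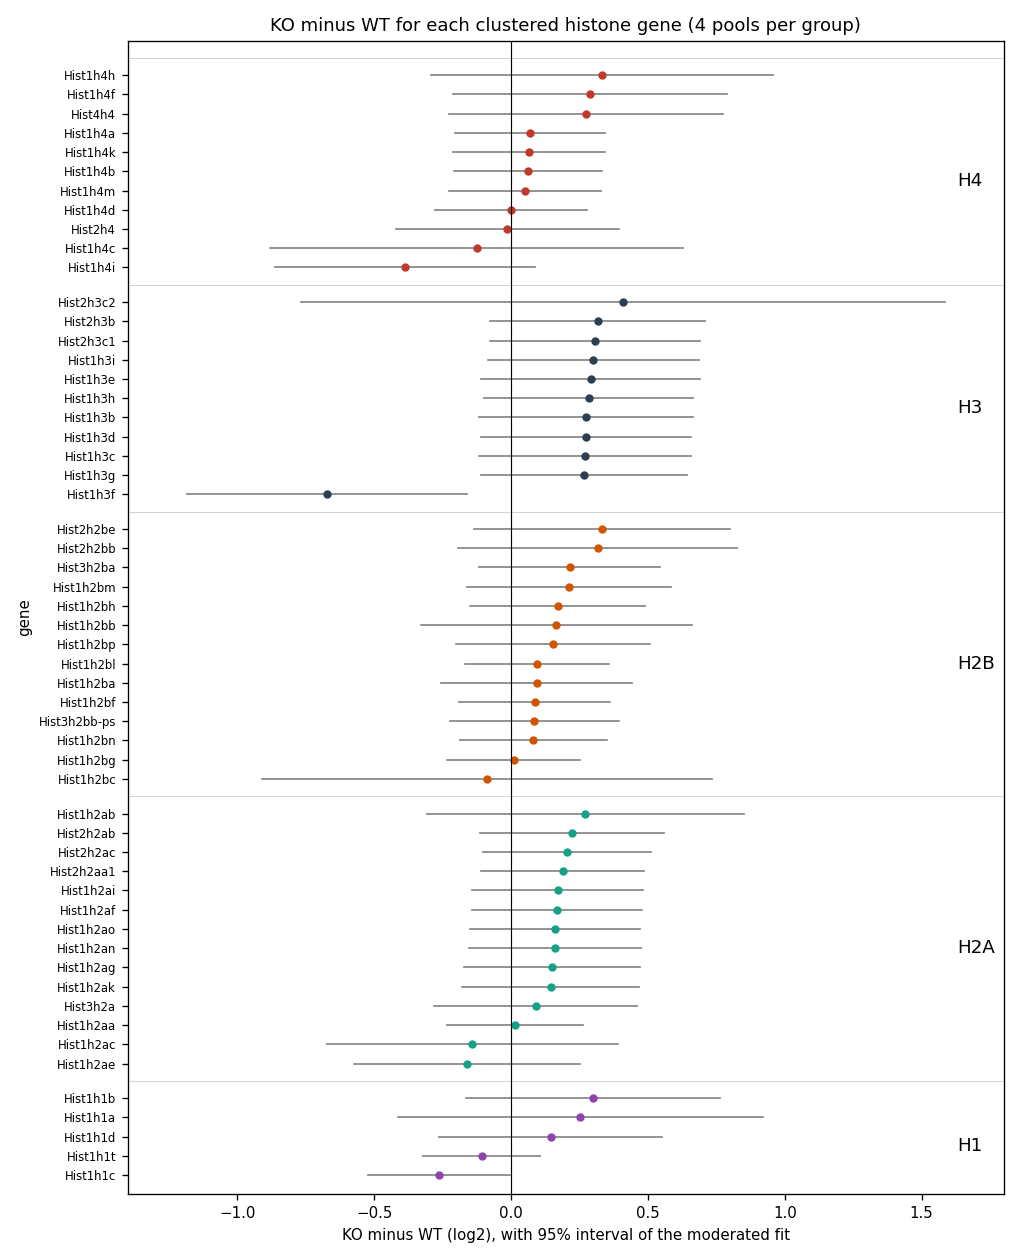
KO minus WT (log2) for each of the 55 genes with the 95% interval of limma's moderated fit, grouped by type and sorted within it. The intervals exclude 0 only for Hist1h1c and Hist1h3f, both lower in KO, and the adjusted p of both was 0.967.

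Among the 5 H1 genes, KO was higher in 3 and lower in 2. Their median difference was 0.15, and 0 passed. Hist1h1c (H1.2), a widely expressed linker histone, was at 9.40, 9.61, 9.55 and 9.22 over KO pools 1 to 4, and at 9.55, 9.75, 9.74 and 9.80 over WT pools 1 to 4. WT pool 1 lay below 2 KO pools, and the other WT pools lay above every KO pool. The difference was -0.26 (SE 0.12, 95% interval -0.52 to -0.0021), with a limma adjusted p of 0.967 and an exact permutation p of 0.0857. Hist1h1b (H1.5) was at 9.71, 9.42, 9.75 and 10.31 in KO and at 9.40, 9.45, 10.02 and 9.13 in WT. KO pool 4 was the highest and WT pool 4 the lowest, with overlap of the groups, and the difference was 0.30 (SE 0.21). It became 0.13 with KO pool 4 left out, 0.18 with WT pool 4 left out and 0.47 with WT pool 3 left out. Hist1h1a (H1.1) varied most, from 7.23 in WT pool 2 to 8.93 in KO pool 4, with a difference of 0.25 (SE 0.30) that was 0.03 without KO pool 4, -0.012 without WT pool 2, 0.41 without KO pool 2 and 0.48 without WT pool 3. Hist1h1d (H1.3) differed by 0.15 (SE 0.19). Hist1h1t, the testis H1, lay between 4.21 and 4.47 in all pools.

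Hist1h1c and Hist1h1b, whose differences had opposite signs, are shown by the bases before their starts, Hist1h1c at chr13:23738667-23738806 (+) and Hist1h1b at chr13:21780626-21780765 (-) of GRCm38.p6. Capitals mark CCAAT and TATAAA on either strand.
Hist1h1c: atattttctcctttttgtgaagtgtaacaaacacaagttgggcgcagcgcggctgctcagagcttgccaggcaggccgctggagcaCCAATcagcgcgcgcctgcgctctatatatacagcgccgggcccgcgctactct
Hist1h1b: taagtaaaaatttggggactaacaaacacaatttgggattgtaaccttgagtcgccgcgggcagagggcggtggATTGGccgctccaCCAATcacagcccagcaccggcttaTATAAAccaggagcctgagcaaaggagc
The window of Hist1h1c holds 1 CCAAT match and 0 TATAAA matches, and that of Hist1h1b holds 2 and 1.

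The H2A genes had a median difference of 0.16, with 12 of 14 higher in KO. Hist2h2ab was at 11.40, 11.35, 11.41 and 11.88 in KO and at 11.21, 11.17, 11.62 and 11.14 in WT. KO pool 4 and WT pool 3 stood above the other pools of their groups, and the difference was 0.22 (SE 0.15), or 0.33 without WT pool 3. Hist2h2ac differed by 0.21 (SE 0.14) and Hist2h2aa1 by 0.19 (SE 0.14), and both belong to the H2A set that read alike. Without KO pool 4 the differences of these 3 genes were 0.10, 0.09 and 0.08. Averaged over that set, the levels were 11.71, 11.65, 11.80 and 12.15 in KO and 11.54, 11.50, 11.92 and 11.67 in WT. Hist1h2ab, outside the set, varied most, from 8.16 in WT pool 4 to 9.61 in KO pool 4, and differed by 0.27 (SE 0.26). Leaving out KO pool 4 gave 0.10, leaving out WT pool 4 gave 0.06 and leaving out WT pool 3 gave 0.49. Hist1h2ac and Hist1h2ae were the H2A genes lower in KO, by -0.14 (SE 0.24) and -0.16 (SE 0.19). Hist3h2a differed by 0.09 (SE 0.17) and the testis gene Hist1h2aa by 0.02 (SE 0.11). The adjusted p of limma was at least 0.967 for all 14.

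The H2B genes had a median difference of 0.12, with 13 of 14 higher in KO. Hist2h2be was at 7.58, 7.28, 7.87 and 7.80 in KO and at 7.44, 6.62, 7.47 and 7.67 in WT. WT pool 2 was far below the other pools, and the difference was 0.33 (SE 0.21), or 0.11 without WT pool 2. Hist2h2bb was at 6.82, 6.74, 6.86 and 7.42 in KO and at 6.54, 6.02, 7.21 and 6.80 in WT, a difference of 0.32 (SE 0.23). Leaving out KO pool 4 gave 0.16, leaving out WT pool 2 gave 0.11 and leaving out WT pool 3 gave 0.50. Hist3h2ba differed by 0.21 (SE 0.15), by 0.12 without WT pool 2 and by 0.35 without WT pool 3. Hist1h2bc varied most of the H2B genes, at 8.47, 8.24, 9.33 and 8.57 in KO and at 8.47, 7.61, 9.34 and 9.54 in WT. It was the only H2B gene lower in KO, by -0.09 (SE 0.38), and its sign turned without KO pool 2, WT pool 3 or WT pool 4, to 0.05, 0.11 and 0.18. Hist1h2bg was steady, between 9.74 and 10.10 in all pools. The set of 3 H2B and 4 H4 genes that read alike averaged 12.01, 11.95, 12.15 and 12.35 in KO and 12.01, 11.95, 12.25 and 11.96 in WT.

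The H3 genes had the highest median difference of the 5 types, 0.28 or 1.22-fold, against 0.16 for H2A, 0.15 for H1, 0.12 for H2B and 0.06 for H4; differences between types were not tested. The 9 genes that read alike differed by 0.27 to 0.32. Their levels lay between 11.48 and 11.53 in KO pool 1, 11.42 and 11.48 in KO pool 2, 11.60 and 11.68 in KO pool 3 and 12.04 and 12.13 in KO pool 4. In WT they lay between 11.33 and 11.39 in pool 1, 11.09 and 11.17 in pool 2, 11.80 and 11.82 in pool 3 and 11.16 and 11.23 in pool 4. KO pool 4 was the highest of all, WT pool 3 lay above KO pools 1 to 3, and the other WT pools lay below every KO pool. For Hist2h3b, the gene of the set with the largest difference, it was 0.32 (SE 0.18, 95% interval -0.08 to 0.71), with a limma adjusted p of 0.967 and an exact permutation p of 0.200. Without KO pool 4 it was 0.17. Over the set, exact p lay between 0.200 and 0.257, and the lower ends of the intervals lay at or above -0.12.

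Both other H3 genes had weak signals. Hist1h3f was at 3.10, 2.77, 2.55 and 2.74 in KO and at 3.24, 3.49, 4.19 and 2.91 in WT. All KO pools but the first lay below every WT pool. Its difference of -0.67 (SE 0.23) had the smallest unadjusted p of all members, 0.0145 by limma, an adjusted p of 0.967 and an exact permutation p of 0.0571. Without WT pool 3 the difference was -0.43. Hist2h3c2 was at 3.98, 6.51, 4.75 and 4.75 in KO and at 3.83, 5.02, 5.77 and 3.72 in WT, the widest spread of any member. Its difference of 0.41 (SE 0.54) was -0.095 without KO pool 2, 0.16 without WT pool 1, 0.12 without WT pool 4, 0.75 without KO pool 1 and 0.81 without WT pool 3.

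**Figure D4:**
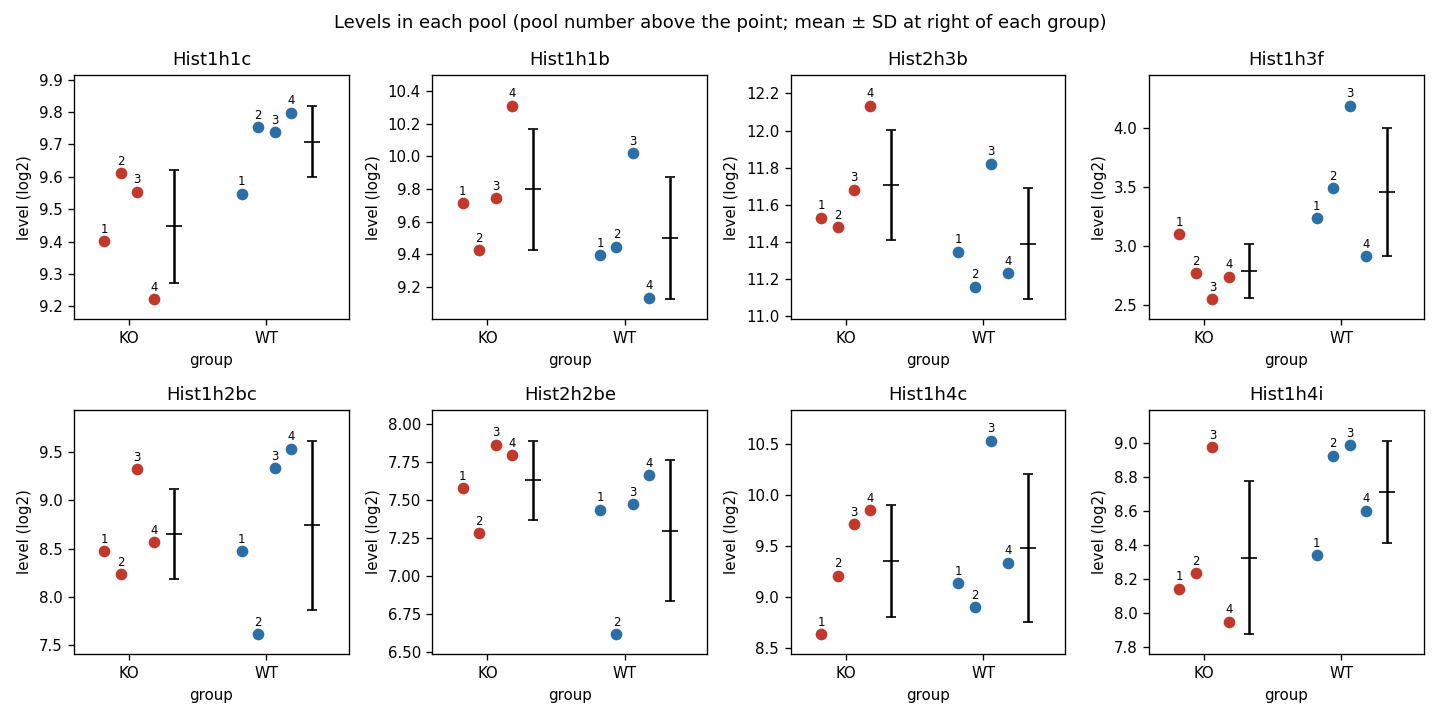
Levels (log2) of 8 members in each pool, with the pool number above each point and the mean ± SD (n = 4) beside each group. Hist2h3b was high in KO pool 4 and WT pool 3, Hist1h1c was low in KO pool 4, and Hist1h2bc ranged from 7.61 to 9.54 among the WT pools.

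The H4 genes had the smallest median difference, 0.06, with 7 of 11 higher in KO. Without KO pool 4 the 4 H4 genes of the third set, Hist1h4a, Hist1h4b, Hist1h4k and Hist1h4m, turned to lower in KO. Hist1h4i was at 8.14, 8.23, 8.97 and 7.95 in KO and at 8.34, 8.92, 8.99 and 8.60 in WT. KO pool 3 reached the level of WT pools 2 and 3, each other KO pool was lower than all WT pools, and the difference was -0.39 (SE 0.22), or -0.60 without KO pool 3. Hist1h4c varied most, from 8.64 in KO pool 1 to 10.54 in WT pool 3, and its difference of -0.12 (SE 0.34) turned to 0.11 without KO pool 1 and 0.23 without WT pool 3. Hist4h4, the gene of cluster 4, was at 8.09, 7.92, 8.08 and 9.11 in KO and at 8.01, 8.09, 8.24 and 7.79 in WT. Its difference of 0.27 (SE 0.23) was 0.0034 without KO pool 4. Hist1h4f differed by 0.29 (SE 0.23), or 0.06 without KO pool 4, and Hist1h4h by 0.33 (SE 0.28), while Hist1h4d differed by -0.0012 (SE 0.13).

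H2A and H2B genes often lie head to head and share the sequence between them. By gene positions and the strands at hand, 8 such pairs lie among the members. The strand of Hist1h2bc, Hist2h2be and Hist3h2bb-ps was not at hand, so their pairs rest on the partner's strand. Partners did not always read alike. In the pair of Hist1h2ac and Hist1h2bc the profiles differed by up to 1.08 in a pool, in Hist2h2ac and Hist2h2be by 0.60 and in Hist1h2ae and Hist1h2bg by 0.56. In Hist1h2ai and Hist1h2bl they differed by at most 0.18, and each of these genes also belongs to a set with near-equal profiles. The octamer is shown for Hist1h2ac, the gene that read most differently from its partner, and for the H2B genes Hist1h2bb and Hist2h2bb. The windows lie at chr13:23683960-23684099 (-), chr13:23746594-23746733 (+) and chr3:96269560-96269699 (+) of GRCm38.p6. Capitals mark the octamer, CCAAT and TATAAA on either strand.
Hist1h2ac: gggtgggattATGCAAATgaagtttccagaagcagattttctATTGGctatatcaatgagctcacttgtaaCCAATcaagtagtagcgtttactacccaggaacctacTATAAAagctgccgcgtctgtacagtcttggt
Hist1h2bb: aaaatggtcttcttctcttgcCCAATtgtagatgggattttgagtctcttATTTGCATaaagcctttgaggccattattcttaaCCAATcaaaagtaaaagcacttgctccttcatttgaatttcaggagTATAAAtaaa
Hist2h2bb: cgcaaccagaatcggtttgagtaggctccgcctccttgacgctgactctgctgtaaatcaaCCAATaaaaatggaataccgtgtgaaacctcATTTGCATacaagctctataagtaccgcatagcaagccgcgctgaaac
Each of the 3 windows holds 1 octamer.

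Histone genes outside the clusters had a smaller median SD over the pools. The difference was not tested. Among 15 measured variant genes, 10 were higher and 5 lower in KO. They had a median difference of 0.03, and 0 passed. Their median SD over the 8 pools was 0.18 against 0.28 for the clustered genes and 0.19 for all genes. H2afx, which encodes H2AX and marks broken DNA when phosphorylated, had the largest difference of the variants. It was at 9.71, 9.56, 9.92 and 10.22 in KO and at 9.44, 9.11, 9.88 and 9.42 in WT, high in KO pool 4 and WT pool 3. Its difference was 0.39 (SE 0.18, limma adjusted p 0.967). H3f3b, which encodes the replacement histone H3.3, was at 11.45, 11.29, 11.29 and 11.10 in KO and at 11.48, 11.52, 11.31 and 11.42 in WT, a difference of -0.15 (SE 0.11). Hils1, a spermatid gene, differed by -0.15 (SE 0.11).

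Factors that make, process and destroy histone messages gave no call. Of 29 measured, KO was higher in 20 and lower in 9, with a median of 0.09 and 0 passing the test. Slbp was at 8.07, 7.91, 8.48 and 8.20 in KO and at 8.16, 7.78, 8.29 and 7.77 in WT, a difference of 0.16 (SE 0.16). Npat was at 7.22, 6.64, 6.92 and 6.72 in KO and at 6.86, 6.33, 6.95 and 6.96 in WT, a difference of 0.10 (SE 0.17). Neither gene had its highest value in KO pool 4. Mif4gd, whose product SLIP1 links SLBP to translation, differed by -0.37 (SE 0.15). Ncbp1 of the nuclear cap-binding complex differed by 0.31 (SE 0.13) and Papd5, a noncanonical poly(A) polymerase, by 0.27 (SE 0.12), and the KO and WT pools did not overlap for Papd5. Of 25 histone chaperones 19 were higher and 6 lower, with a median of 0.08 and 0 passing. Chaf1a, a subunit of the CAF-1 assembly factor, differed by 0.30 (SE 0.12), Daxx, a chaperone of H3.3, by 0.28 (SE 0.11), without overlap of the groups, and Supt16h of the FACT complex by 0.27 (SE 0.17). The limma adjusted p of these genes was at least 0.967. The groups did not overlap for 1 of 29 factors and 2 of 25 chaperones, against 2.58% of all genes.

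The pools high in histone messages were not in every case the pools high in other cell cycle genes. The median deviation of 46 S phase genes, none of them a histone, was -0.06, -0.04, 0.38 and 0.14 over KO pools 1 to 4, against -0.20, -0.34, 0.14 and -0.06 over WT pools 1 to 4. That of 29 G2 and M phase genes was -0.01, 0.00, 0.47 and 0.20 in KO and -0.32, -0.50, 0.23 and 0.01 in WT. KO pool 3 was the highest KO pool for 30 of 46 S phase and 26 of 29 G2 and M phase genes, but for 7 of 55 clustered histone genes. KO pool 4, the highest KO pool for 42 histone genes, was the highest for 12 S phase and 3 G2 and M phase genes. In WT the lists had the same extremes, WT pool 3 at the top and WT pool 2 at the bottom. Over all 8 pools, KO was higher in 42 of 46 S phase genes and in 29 of 29 G2 and M phase genes. Their median differences were 0.21 and 0.30, against 0.16 for the histone genes, and 0 genes of either list passed. The unadjusted limma p was under 0.05 for 7 S phase and 5 G2 and M phase genes, against 2 of 55 histone genes and 4.55% of all genes. Without KO pool 4 the median difference between KO and WT was 0.05 for the histone genes and was 0.18 for the S phase genes, and without KO pool 3 it was 0.16 and 0.11.

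**Figure D5:**
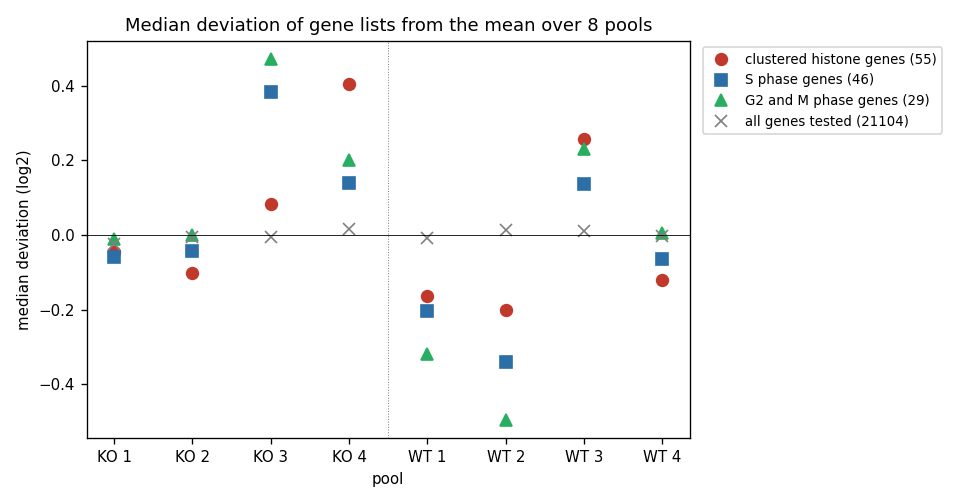
Median of the genes' levels minus their own 8-pool means (log2) for the clustered histone genes, the S phase list, the G2 and M phase list and all genes tested, by pool. In KO pool 3 the histone genes (0.08) lie below the S phase genes (0.38), and in KO pool 4 they lie above (0.41 against 0.14).

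Lists of genes named for other blood lineages also varied between pools, and the lists were not all high in the same pools. Of 8 measured megakaryocyte genes 8 were higher in KO, their median deviation was -0.01, -0.03, 0.38 and 0.36 in KO and -0.57, -0.32, 0.29 and -0.06 in WT, and their mean level ranged from 8.42 to 8.85 over the KO pools and from 7.97 to 8.68 over the WT pools. Of 15 markers of granulocytes and monocytes, 12 were higher, with mean levels from 6.28 to 7.17 in KO and from 5.84 to 6.98 in WT. Their median deviation was -0.22, 0.27, 0.17 and -0.04 in KO and -0.11, -0.57, 0.18 and -0.17 in WT. Of 13 erythroid genes 8 were higher, with mean levels from 6.22 to 6.69 and from 6.19 to 6.56. For these the median deviation was 0.04, 0.14, 0.12 and -0.25 in KO and 0.02, -0.09, 0.02 and -0.16 in WT. None of the megakaryocyte and granulocyte markers and 2 of the erythroid markers had means below the lower quartile of all genes, and RMA values have no true zero. Their part in the histone levels was not tested.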

How the data were processed

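The authors' deposited values are log2 levels, made with RMA in Affymetrix Expression Console 1.3 per the submitters' processing notes, for 28853 probe sets on 8 arrays, 1 per pool of 3 mice; the series' design text speaks of mice rather than pools. RMA makes the arrays' distributions alike, so it can hide a change shared by most genes. The deposited table also holds the authors' log2 ratio, signed fold (a score) and unadjusted p-value of KO against WT. The sources used here name neither genome build nor annotation release. Only the 23586 probe sets with 1 symbol were used, and the one with the highest mean was kept per gene. KO was compared with WT in limma 3.58.1 (R 4.3.3, lmFit and eBayes, no covariate), with Benjamini-Hochberg adjustment over 21104 genes and a threshold of 0.05. The exact 2-sided permutation test used all 70 assignments. SE and 95% intervals are limma's. The fit was tested on simulated data. Precision is limited by 4 arrays per group; p-values measure the spread between pools.

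Members and lists were chosen with earlier results of these data known, and no p is given for a list. In full are described, per type, the 3 genes with the largest absolute moderated t and the one with the largest SD, and per list of variants, factors and chaperones the 3 largest t, with Slbp and Npat; other members are named in counts or as examples picked after their values were seen. Alternatives were a replicate block, filters on dim genes, other scalings, array weights, another prior, another merging of probe sets, the authors' p-values and leaving out each pool. Promoter windows and motif shares come from RefSeq tables of GRCm38.p6.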

Additional observations from a re-analysis of the deposited data

Results flagged for a closer look

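In 82 groups of 4 pools, for the medians per histone type and the named genes, 7 held a pool far from its group's other 3. Chance flags about 1 in 20 of independent groups. Most named genes were chosen by their t or SD and some read alike, so that rate is no test here. The H2B median deviation in WT pool 3 was 0.18, against -0.17 to -0.11 in the other WT pools. The H4 median deviation in WT pool 3 was 0.27, against -0.15 to -0.08. Hist2h2aa1 was at 11.94 in KO pool 4, against 11.46 to 11.53 in the other KO pools. Hist2h2ab was at 11.88 in KO pool 4, against 11.35 to 11.41, and at 11.62 in WT pool 3, against 11.14 to 11.21. Hist4h4 was at 9.11 in KO pool 4, against 7.92 to 8.09. Npat was at 6.33 in WT pool 2, against 6.86 to 6.96.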

How the results depend on the processing

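The clustered histone genes had 0 calls under each alternative run. Over all genes the count was 0 in each except with the replicate number as a block, where limma called 2 genes, neither of them a member. Same-numbered KO and WT pools correlated in their deviations with r of 0.29, 0.21, 0.31 and 0.06, and with the last of them under 0.1 the numbers were not taken to pair the pools. As a hint from the data, each of the 8 pools correlated best with its own number, and the 12 other r lay between -0.22 and 0.03. With the block, limma's unadjusted p was under 0.05 for 1689 genes against 960 and for 4 members against 2. The added members were Hist2h2be, higher in KO in 4 of 4 numbers (p 0.024 against 0.148), and Hist1h4i, higher in 0 of 4 (p 0.022 against 0.10), both with a limma adjusted p of 0.610. Leaving out 1 pool moved the median difference of all members between 0.05 and 0.26, of H1 between -0.01 and 0.25, of H2A between 0.06 and 0.25, of H2B between 0.03 and 0.21, of H3 between 0.14 and 0.43 and of H4 between -0.02 and 0.13. With other settings the member median lay between 0.13 and 0.20; centring arrays on their medians moved the medians of all genes and of the members by 0.04 each. Alternatives chosen after seeing the data were 1 value per set that reads alike, all 59 probe sets, and the members without testis genes and pseudogene. The sign of 16 of 55 members turned when 1 or another pool was left out, 6 of them without KO replicate 4, and the cause was not tested. Among the genes described in full these were 4. Hist1h4c was at 0.11 and 0.23 without KO replicate 1 and WT replicate 3, with a lowest value of -0.32. Hist1h2bc was at 0.05, 0.11 and 0.18 without KO replicate 2, WT replicate 3 and WT replicate 4, with a lowest value of -0.46. Hist2h3c2 ranged from -0.095 (without KO replicate 2) to 0.81, and Hist1h1a from -0.012 (without WT replicate 2) to 0.48.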
